A study of Mus musculus with 6 samples.

Results

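The 37 genes described here are commonly used as readouts of the epithelial-mesenchymal transition (EMT), and they were picked by symbol from the 22602 genes of the deposited mRNA table. They comprise 7 EMT transcription factors, 5 regulators of the epithelial state, 4 cadherins, 8 tight junction, EpCAM and polarity genes, 3 desmosome genes, and 10 mesenchymal, matrix and signalling genes. The study expressed SIM2, a bHLH-PAS transcription factor that has been reported to restrain EMT, in mouse embryonic stem (mES) cells, and the comparison shows how these mRNAs differed once the factor was present. The EB3 control (EBRTcH3, the parental line) gave 3 libraries, numbered 0, 1 and 2, and the Sim2-expressing cells gave 1 library for each of the clones A6, B8 and C4. Each clone carried mouse Sim2 with a Flag tag, followed by Venus, at the ROSA26 locus behind a hCMV*-1 promoter that is held silent by tetracycline. EB3 lacked the Sim2 transgene. All 6 cultures were grown on gelatin in serum with Leukemia Inhibitory Factor and all of them spent their last 26 h in tetracycline-free medium, so time, medium and withdrawal were shared by both groups. Each clone was sampled once and EB3 is a single line. Differences between a clone and its parent other than the transgene therefore cannot be told apart from those due to SIM2.

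Epithelial cells are held together by adherens junctions built on E-cadherin, by tight junctions built on claudins and by desmosomes anchored to keratin filaments. In EMT, factors of the SNAI, ZEB and TWIST families repress these junction genes, and cells gain N-cadherin, vimentin and matrix proteins, while OVOL, GRHL2 and ESRP proteins act against the switch. mES cells in serum and Leukemia Inhibitory Factor grow as compact colonies with high E-cadherin, a state with epithelial features.

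SIM2-bound regions, each 100 bases wide, were identified by chromatin immunoprecipitation against the Flag tag in more than 1 of the same clones, though not necessarily in all. They were assigned to 8 of the 37 genes as a nearest gene, and to 1823 of the 22602 listed genes. This assay is separate from the mRNA values. The sequences nearest to each of these genes are shown because they are the places where the factor was found next to an EMT gene. They were read from the plus strand of mm9, 5′ to 3′, and capitals mark any match, on either strand, to 1 of 6 motifs. Listed starts were taken as 0-based, since ends minus starts are 100, and if they are 1-based each window lies 1 base lower. The motifs were the central midline element ACGTG of SIM factors, the octamer ATGCAAAT of POU5F1, CATTGT and CTTTGT of SOX factors, GGGNGTGG of Krüppel-like factors and AAGGTCA of ESRRB.
Vim, chr2:13493937-13494036: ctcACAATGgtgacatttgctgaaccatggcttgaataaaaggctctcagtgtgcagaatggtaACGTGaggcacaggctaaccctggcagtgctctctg
Snai1, chr2:167365665-167365764: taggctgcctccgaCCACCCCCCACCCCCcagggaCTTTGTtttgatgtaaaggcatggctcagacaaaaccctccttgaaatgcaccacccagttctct
Snai1, chr2:167366337-167366436: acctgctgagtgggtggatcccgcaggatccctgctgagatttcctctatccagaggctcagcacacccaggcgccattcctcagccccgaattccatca
Jup, chr11:100237400-100237499: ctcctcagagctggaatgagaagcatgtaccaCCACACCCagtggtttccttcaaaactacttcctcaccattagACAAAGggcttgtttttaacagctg
Cldn3 and Cldn4, chr5:135446670-135446769: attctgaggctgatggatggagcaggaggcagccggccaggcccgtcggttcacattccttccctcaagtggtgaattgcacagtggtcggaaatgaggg
Mmp2, chr8:95345219-95345318: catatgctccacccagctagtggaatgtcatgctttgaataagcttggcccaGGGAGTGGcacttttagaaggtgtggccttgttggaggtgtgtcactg
Grhl2, chr15:37167262-37167361: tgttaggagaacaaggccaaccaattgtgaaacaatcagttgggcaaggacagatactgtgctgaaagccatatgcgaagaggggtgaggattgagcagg
Sparc, chr11:55264117-55264216: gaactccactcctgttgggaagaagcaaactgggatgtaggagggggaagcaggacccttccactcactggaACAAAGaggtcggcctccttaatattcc

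The Vim region lies in intergenic sequence and its centre is 1952 bases upstream of the Vim start. It was the only one of those printed with a central midline element, on the plus strand, and it also held CATTGT on the minus strand. The central midline element was present in 9.68% of the 1229 SIM2-bound regions and CATTGT in 11.1%. The Snai1 regions both lie in an intron of Snai1, with centres 1987 and 2659 bases downstream of its start. The first held CTTTGT on the plus strand and 2 overlapping minus-strand matches to GGGNGTGG, and the second held none of the 6 motifs. The Jup region lies in an intron of Jup, 21655 bases from the start, with minus-strand matches to CTTTGT and to GGGNGTGG. CTTTGT was found in 18.9% of the 1229 regions and GGGNGTGG in 5.61%. A single intergenic region was shared by the divergent neighbours Cldn3 and Cldn4, 15365 bases upstream of Cldn3 and 23915 bases upstream of Cldn4, and it held no match. The Mmp2 region lies 5959 bases upstream in intergenic sequence, with GGGNGTGG on the plus strand. A further Mmp2 region was 83931 bases upstream. The nearest Grhl2 region was in its intron, 4520 bases from the start, with no match. Other Grhl2 regions lay 29632 and 168789 bases downstream, and the farther of them, in an intron of Ncald, held the octamer, which was present in 5.21% of all regions. The Sparc region was in an intron of the neighbouring gene Atox1, 30584 bases upstream of Sparc, with CTTTGT on the minus strand. A match of letters is a description of these windows and does not show which factor occupied them. AAGGTCA was in none of these regions, against 6.02% of the 1229.

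Depth was 25095861 to 28269340 reads per library, and RPKM scales reads by cDNA length and by the depth of the library. Sim2 mRNA was 168 to 212 RPKM in the clones and 0.0917 to 0.130 RPKM in EB3, so every library matched its label. The 8 ES cell identity genes were all present, with Pou5f1 at 1502 to 1961 RPKM over the 6 libraries, and 0 of the 8 were called. 3 of them did not overlap between groups. Zfp42 (log2 fold change -0.31) and Tdgf1 (-0.21) were lower in the clones and Esrrb (0.31, and 0.12 without B8) was higher. Of all tested genes, 12.7% lay higher in the clones without overlap and 13.4% lower. Zfp42 was called without EB3-0 (limma, adjusted p = 0.0350), in a fit that called 5.99% of all tested genes. The 20 tested genes around Esrrb had a median log2 fold change of 0.25, and a median log2 ratio of B8 to the mean of A6 and C4 of 0.54. EB3-0 stood apart from EB3-1 and EB3-2 by cDNA length. Its median log2 ratio to their mean was -0.41 over 1774 tested genes with a cDNA of at least 5000 bases and 0.24 over 3751 genes under 2000 bases. Among the EMT genes, all 9 tested members with a cDNA of at least 4000 bases were lowest in EB3-0 of the 3 EB3 cultures. Values are from whole cultures, so fewer cells of a kind and less RNA per cell cannot be told apart.

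In these mES cells abundant members came from both the epithelial and the mesenchymal side of the list, and the EMT transcription factors were at most a few RPKM, in both groups. 30 of the 37 genes reached a mean of 1 RPKM over the 6 libraries and were tested, and 7 did not. By their mean RPKM in EB3 the most abundant members were Vim (percentile 98.1 of all listed genes), Cdh1 (96.6), Sparc (95.9), Cldn4 (95.5), Fn1 (94.8), Epcam (93.1), Itgb1 (92.3) and Jup (91.7). High vimentin, SPARC and fibronectin mRNA thus accompanied high E-cadherin mRNA in the parental line. Of the SNAI, ZEB and TWIST factors, the highest value in any library was 6.56 RPKM, for Snai1 in B8.

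**Figure D1:**
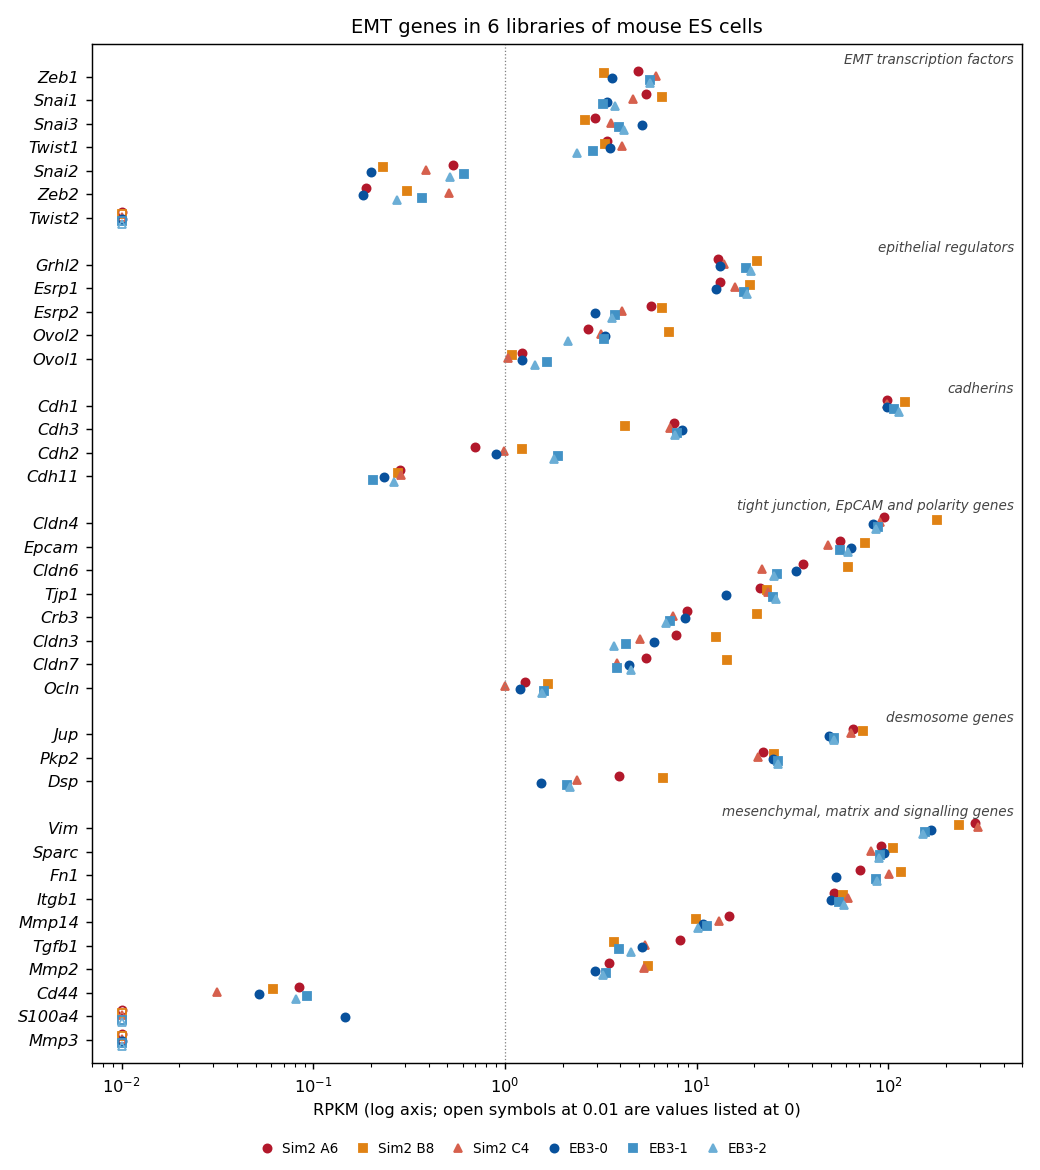
RPKM (log axis) of the 37 EMT genes in the 3 Sim2 clones (red and orange symbols) and the 3 EB3 cultures (blue symbols), grouped by role and ordered by mean within a role, with the dotted line at the 1 RPKM used to select genes for testing. Vim, Cdh1, Sparc, Cldn4, Fn1 and Itgb1 lie at or above 50.1 RPKM in every library, the transcription factors lie at or under 6.56 RPKM, and open symbols mark values listed at 0.

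Of the 30 tested genes, 1 was called between the Sim2 clones and EB3 (adjusted p under 0.05), Vim, which was higher in the clones, and 0 were called lower. The test was limma on log2(RPKM + 0.5), with Benjamini-Hochberg adjustment over all 11595 tested genes. The share of all tested genes called was 0.699%. At an unadjusted p under 0.05 there were 8 EMT genes, 7 higher in the clones (Vim, Jup, Snai1, Esrp2, Dsp, Mmp2 and Cldn3) and 1 lower (Snai3). Over all tested genes there were 2059, 974 higher and 1085 lower. The 3 Sim2 values lay above all 3 EB3 values for 7 of the 30 (Vim, Jup, Snai1, Esrp2, Dsp, Mmp2 and Cldn4), against 12.7% of all tested genes. They lay below for 3 (Snai3, Ovol1 and Cdh3), against 13.4%. The median log2 fold change was 0.22 over the 30 genes and -0.01 over all tested genes, and the median of the 30 was 0.10 without B8 and 0.16 without EB3-0.

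**Figure D2:**
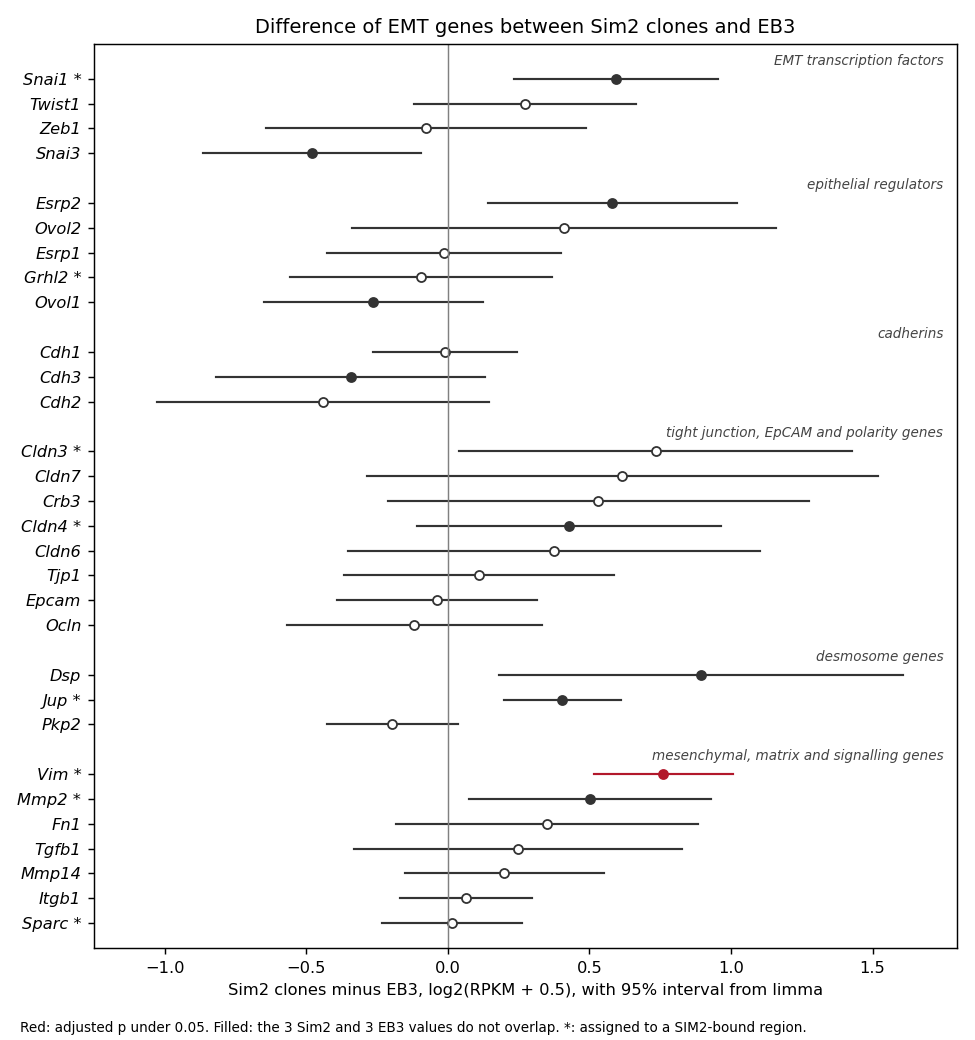
Log2 fold change of the 30 tested EMT genes (Sim2 clones minus EB3, on the log2(RPKM + 0.5) scale) with 95% intervals from limma, 3 libraries a group. Vim, in red, is the called gene, with an interval of 0.52 to 1.01, filled points mark the 10 genes whose groups do not overlap, and asterisks mark the 8 genes assigned to a SIM2-bound region.

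Vim (chromosome 2, 13495938 to 13504453, plus strand) encodes vimentin, the intermediate filament protein of mesenchymal cells. Its mRNA level was 281, 235 and 291 RPKM in A6, B8 and C4. In EB3 it was 167, 156 and 151 RPKM in cultures 0, 1 and 2. Every clone was above every EB3 culture, and B8 was the lowest clone. The means were 269 ± 30.2 and 158 ± 7.98 RPKM (SD, n = 3 each), a ratio of 1.70, and on the log2 scale the clones were higher by 0.76 ± 0.11 (SE; limma, adjusted p = 0.0285). In the 2-sided exact permutation test p was 0.1, and with 3 libraries a group it cannot be lower. The call held in limma fits without EB3-0 (adjusted p = 0.0189) and without B8 (0.0419). It was lost without A6 (0.123), without C4 (0.113), without EB3-1 (0.148), without EB3-2 (0.138) and with EB3-1 and EB3-2 averaged as 1 library (0.134), while the fold change stayed between 0.70 and 0.86. The 20 tested genes around Vim, 10 on each side, had a median log2 fold change of -0.05, and 0 of them were called. Trdmt1, the other gene assigned to the region printed for Vim, changed by -0.16 ± 0.14 on the log2 scale (SE; limma, adjusted p = 0.577).

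The other mesenchymal, matrix and signalling genes were not called. Mmp2 (chromosome 8, 95351227 to 95377319), a secreted gelatinase that degrades basement membrane, was 3.49, 5.55 and 5.32 RPKM in A6, B8 and C4 and 2.94, 3.34 and 3.24 RPKM in EB3-0, EB3-1 and EB3-2. The groups did not overlap, although A6 lay just above EB3-1, and the log2 fold change was 0.50 (95% interval 0.07 to 0.93; limma, adjusted p = 0.216). Fn1 (chromosome 1, 71632097 to 71699745) encodes the matrix protein fibronectin. It was 70.8, 117 and 100.2 RPKM in A6, B8 and C4 and 53.0, 86.5 and 86.9 RPKM in the EB3 cultures. The groups overlapped, with A6 under EB3-1 and EB3-2, and the log2 fold change, 0.35 with an SE of 0.23 (limma, adjusted p = 0.478), was 0.12 without EB3-0 and 0.19 without B8. Sparc, a matrix-binding glycoprotein gene, was 81.5 to 106 RPKM in the clones and 88.9 to 95.3 RPKM in EB3, with a log2 fold change of 0.01 and a 95% interval of -0.23 to 0.26. Itgb1, the beta subunit of fibronectin and laminin receptors, was 52.1 to 61.5 RPKM against 50.1 to 58.9 RPKM, with an interval of -0.17 to 0.30. Mmp14, a membrane-bound protease that activates MMP2, was 9.88 to 14.7 RPKM in the clones and 10.1 to 11.3 RPKM in EB3. Tgfb1, the ligand that induces EMT in many epithelia, was 3.69 to 8.16 RPKM in the clones and 3.95 to 5.16 RPKM in EB3, so that the clones spanned a wider range on both sides of EB3. All 7 tested genes of this group had a fold change above 0, with a median of 0.25, and 5 of the 7 overlapped between groups.

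3 genes that mark mesenchymal cells were close to undetected in every library. Cd44, a hyaluronan receptor, was 0.0313 to 0.0846 RPKM in the clones and 0.0519 to 0.0926 RPKM in EB3, which is 5 to 14 reads a library. S100a4, a calcium-binding protein gene used as a fibroblast marker, was listed at 0 except in EB3-0, which had 2 reads. Mmp3, a stromelysin gene, had 0 reads in all 6 libraries, which allows a level of up to 0.0664 RPKM in the least deep library (3 reads). These limits cover counting error alone. Parts of the Mmp3 transcript match other places in the genome, the longest with 538 bases at 95.05% identity on the X chromosome, so a 0 there also depends on how such reads were treated.

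Among the transcription factors that drive EMT, SNAI family members differed in sign and 0 were called. Snai1 (chromosome 2, 167363727 to 167368311) encodes a zinc finger repressor of Cdh1. It was 5.43, 6.56 and 4.64 RPKM in A6, B8 and C4, and 3.42, 3.25 and 3.74 RPKM in EB3-0, EB3-1 and EB3-2. The groups did not overlap, and the log2 fold change was 0.59 with a 95% interval of 0.23 to 0.96 (limma, adjusted p = 0.116). Snai3 (chromosome 8, 124978106 to 124984592), a related repressor, was 2.93, 2.61 and 3.58 RPKM in the clones and 5.19, 3.93 and 4.20 RPKM in EB3. Here every clone was below every EB3 culture, with a log2 fold change of -0.48 and an interval of -0.86 to -0.09 (limma, adjusted p = 0.196). Snai2, the third member, had 0.232 to 0.535 RPKM in the clones and 0.200 to 0.614 RPKM in EB3, from 11 to 33 reads, and was too low to test. The difference between Snai1 and Snai3 was not tested.

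The ZEB and TWIST factors showed no separation of groups. Zeb1, which represses Cdh1 and the microRNA-200 family, was 4.95, 3.27 and 6.09 RPKM in A6, B8 and C4 and 3.62, 5.70 and 5.71 RPKM in the EB3 cultures. B8 and EB3-0 were the low libraries, and the log2 fold change was -0.08 with an interval of -0.64 to 0.49. Zeb2 was 0.188, 0.307 and 0.508 RPKM in A6, B8 and C4 and 0.181, 0.369 and 0.273 RPKM in EB3, below the level tested and with overlapping groups. Twist1, a bHLH factor of mesoderm and neural crest, was 3.33 to 4.06 RPKM in the clones and 2.37 to 3.51 RPKM in EB3 (log2 fold change 0.27; limma, adjusted p = 0.449). Twist2 had 0 reads in all 6 libraries, which allows up to 0.0911 RPKM.

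Of the cadherin genes, whose exchange from E- to N-cadherin is the classical readout of EMT, 3 were tested and 0 were called. Cdh1 (chromosome 8, 109127268 to 109194146), which encodes E-cadherin, was 98.0, 122 and 98.5 RPKM in A6, B8 and C4 and 98.4, 107 and 114 RPKM in EB3-0, EB3-1 and EB3-2. The groups overlapped throughout, and the log2 fold change was -0.01 with a 95% interval of -0.27 to 0.25 (limma, adjusted p = 0.974). Cdh2, which encodes N-cadherin, was 0.695, 1.23 and 0.990 RPKM in A6, B8 and C4 and 0.899, 1.88 and 1.81 RPKM in the EB3 cultures. The overlap between groups came from EB3-0, and the log2 fold change of -0.44 (interval -1.03 to 0.14; limma, adjusted p = 0.414) was -0.69 without EB3-0 (limma, adjusted p = 0.0988). The longest annotated Cdh2 transcript shares 1638 bases at 99.4% identity with a second place in the genome, on chromosome 4, so its level is uncertain where reads could be placed at both. Cdh3, the P-cadherin gene next to Cdh1, was 7.63, 4.24 and 7.26 RPKM in the clones and 8.37, 7.88 and 7.71 RPKM in EB3. Its groups did not overlap, with A6 and C4 close to EB3 and B8 well below, and the log2 fold change was -0.34 in limma with all libraries and -0.095 without B8. Cdh11, a mesenchymal cadherin gene, was 0.276 to 0.285 RPKM in the clones and 0.204 to 0.264 RPKM in EB3, from 23 to 34 reads, and was not tested. Its transcript has 1097 bases at 95.6% identity elsewhere on chromosome 8.

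The balance of 2 genes was also compared within each library. The log2 ratio of Cdh1 to Cdh2, with 0.5 added to each RPKM, was 6.37, 6.14 and 6.05 in A6, B8 and C4. In EB3-0, EB3-1 and EB3-2 it was 6.14, 5.50 and 5.63. A6 was above all 3 EB3 cultures, while B8 and C4 lay between EB3-0 and the other two. The clones' mean was higher by 0.43, with p = 0.3 in the exact 2-sided permutation test. The log2 ratio of Epcam to Vim was -2.32, -1.64 and -2.58 in A6, B8 and C4, and -1.37, -1.47 and -1.30 in EB3. All 3 clones were below all 3 EB3 cultures, by 0.80 on average, with an exact permutation p of 0.1, the lowest this design can reach. Because Epcam had nearly the same mean in both groups, this difference lies mostly in Vim.

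Of the 8 tight junction, EpCAM and polarity genes, 7 were highest in clone B8 and 0 were called. Claudins are the transmembrane strands of tight junctions. Cldn3 (chromosome 5, 135462084 to 135463346) was 7.76, 12.6 and 5.07 RPKM in A6, B8 and C4 and 6.01, 4.29 and 3.70 RPKM in EB3-0, EB3-1 and EB3-2. Cldn4 (135420993 to 135422804), its neighbour, was 94.3, 179 and 90.5 RPKM in the clones and 82.8, 87.8 and 86.2 RPKM in EB3. B8 was highest for both, and Cldn4 was the only one of the pair whose groups did not overlap. Cldn6, which is prominent in early embryonic epithelia, was 35.9, 61.3 and 21.8 RPKM in A6, B8 and C4 against 32.9, 26.2 and 25.3 RPKM in EB3. Cldn7 was 5.41, 14.4 and 3.86 RPKM against 4.42, 3.82 and 4.53 RPKM. For both of these C4 was within or below the EB3 range while B8 was above it. The log2 fold changes of the 4 claudins were 0.73 for Cldn3, 0.62 for Cldn7, 0.43 for Cldn4 and 0.37 for Cldn6, with limma adjusted p-values from 0.261 to 0.585.

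Crb3, a polarity protein gene of the apical membrane, was 8.93, 20.5 and 7.53 RPKM in A6, B8 and C4 and 8.68, 7.25 and 6.89 RPKM in EB3, the same order as for the claudins. Epcam (chromosome 17, 88035319 to 88050467), an adhesion molecule of epithelial and ES cells, was 55.8, 75.1 and 48.5 RPKM in the clones and 64.0, 56.0 and 61.3 RPKM in EB3. Its groups overlapped and its log2 fold change was -0.04 with an interval of -0.39 to 0.32. Tjp1, the scaffold ZO-1, was 21.4 to 23.5 RPKM in the clones, and in EB3 it was 14.3 RPKM in EB3-0 against 25.0 and 25.9 RPKM in EB3-1 and EB3-2. The sign of its fold change, 0.11, turned to -0.16 without EB3-0. Ocln, which encodes occludin, was near 1 RPKM throughout, from 0.997 to 1.67 RPKM.

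The desmosome genes held the largest fold change of the list, which was not called. Dsp (chromosome 13, 38243163 to 38290446), which encodes desmoplakin, the link from desmosomes to intermediate filaments, was 3.94, 6.68 and 2.36 RPKM in A6, B8 and C4. It was 1.55, 2.10 and 2.17 RPKM in EB3-0, EB3-1 and EB3-2. Every clone was above EB3, though C4 was so by only a small margin, and the log2 fold change was 0.89 with a 95% interval of 0.18 to 1.61 (limma, adjusted p = 0.192). Jup (chromosome 11, 100230170 to 100259104) encodes plakoglobin, which serves both desmosomes and adherens junctions. It was 65.6, 73.7 and 63.6 RPKM in the clones and 48.7, 51.7 and 52.3 RPKM in EB3. The groups were well apart, with means of 67.6 ± 5.38 and 50.9 ± 1.90 RPKM (SD, n = 3 each). The log2 fold change of Jup was 0.40 ± 0.09 (SE; limma, adjusted p = 0.0847), and the limma fit without EB3-0 called it (adjusted p = 0.0491). That fit called 5.99% of all tested genes, against 0.699% with all libraries. Pkp2, a plakophilin gene, was 20.9 to 25.2 RPKM in the clones and 25.0 to 26.6 RPKM in EB3, with an interval for the log2 fold change of -0.43 to 0.04.

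Of the 5 regulators that hold cells in the epithelial state, 0 were called. Esrp2 (chromosome 8, 108655083 to 108660874), a splicing regulator of epithelial isoforms, was 5.80, 6.55 and 4.06 RPKM in A6, B8 and C4 and 2.95, 3.75 and 3.63 RPKM in EB3, without overlap (log2 fold change 0.58, interval 0.14 to 1.02; limma, adjusted p = 0.172). Its span overlaps that of a listed gene on the other strand, 1810019D21Rik, at a mean of 2.18 RPKM. The library kit does not mark strand, so reads from any shared exon bases could not be told apart. Overlap of exons was not examined. Esrp1, its paralog and the more abundant of the pair, was 13.2 to 19.0 RPKM in the clones and 12.6 to 18.4 RPKM in EB3. Ovol1 and Ovol2 are zinc finger repressors of Zeb1. Ovol1 was 1.22, 1.08 and 1.04 RPKM in the clones and 1.23, 1.66 and 1.44 RPKM in EB3, with A6 only just below EB3-0. Ovol2 was 2.71, 7.17 and 3.15 RPKM in A6, B8 and C4 and 3.34, 3.28 and 2.13 RPKM in EB3, so B8 alone exceeded EB3. Grhl2, which activates Cdh1 and claudin genes, was 12.9 to 20.7 RPKM in the clones and 13.3 to 19.1 RPKM in EB3, with a log2 fold change of -0.10 and an interval of -0.56 to 0.37.

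Clone B8 stood apart from A6 and C4 in this list. B8 was the highest of the 6 libraries for 18 of the 30 tested EMT genes (60.0%), against 25.3% of all tested genes. In 7 genes (Ovol2, Cldn3, Cldn4, Cldn6, Cldn7, Crb3 and Dsp) it was at least 1.5 times the highest of the other 5 libraries, which was so for 2.29% of all tested genes. Over the 75 tested genes of 7 further lists from the same structures and pathways, these shares were 54.7% and 18.7%. These counts were chosen after the values were seen. Relative to the mean of A6 and C4, B8 was 3.12-fold for Cldn7, 2.49-fold for Crb3, 2.45-fold for Ovol2, 2.13-fold for Cldn6, 2.12-fold for Dsp, 1.96-fold for Cldn3 and 1.94-fold for Cldn4. The same clone was lowest of all 6 libraries for Cdh3, Snai3, Zeb1, Tgfb1 and Mmp14, and lowest of the 3 clones for Vim. Without B8 the log2 fold changes were 0.00 for Cldn6, 0.02 for Ovol2, 0.10 for Cldn7, 0.11 for Crb3, 0.11 for Cldn4, 0.42 for Cldn3 and 0.56 for Dsp. The 20 or fewer tested neighbours of each tested EMT gene had median log2 ratios of B8 to the other clones of -0.14 to 0.09, and median log2 fold changes between groups of -0.16 to 0.14.

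**Figure D3:**
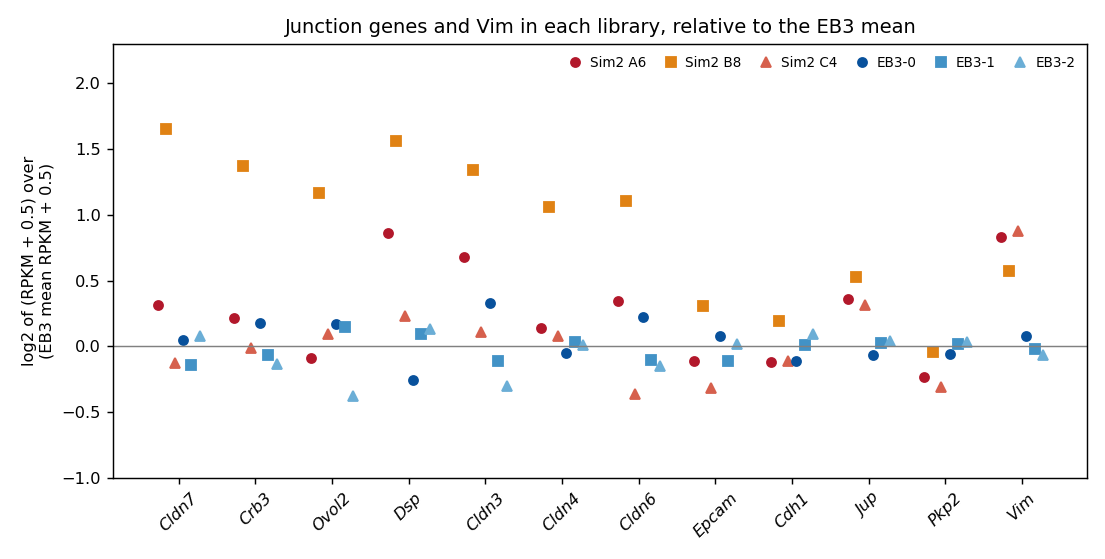
Log2 of RPKM + 0.5 in each library over the EB3 mean + 0.5, for 11 epithelial genes and Vim, with 1 symbol a library. B8 (orange squares) lies above the other 5 libraries for every epithelial gene shown except Pkp2. For Cldn7, Crb3, Ovol2, Dsp, Cldn3, Cldn4 and Cldn6 it is at least 1.5 times the highest of them in RPKM. For Vim B8 is the lowest of the 3 clones and still above EB3.

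Markers of other cell types were set beside these values. The 12 primitive endoderm markers summed to 22.3 to 45.9 RPKM in the clones, highest in B8, and to 14.9 to 17.0 RPKM in EB3. This sum was carried by the basement membrane genes Lama1 and Col4a1, while the defining factors Gata4, Gata6 and Sox17 stayed under 1 RPKM in all libraries. At these low levels Gata4 (0.846 to 0.980 against 0.518 to 0.745 RPKM) and Sox17 (0.280 to 0.298 against 0.0239 to 0.117 RPKM) were also higher in the clones without overlap, as were Cubn and Thbd. Sox17 had 22 to 26 reads in the clones and 2 to 10 in EB3. The 9 trophectoderm markers in the table summed to 23.4 to 48.0 RPKM in the clones, again highest in B8, and to 17.9 to 22.2 RPKM in EB3. Krt8 and Krt18, the keratin pair of simple epithelia, made up much of it together with Tead4. Cdx2 was 0.470 to 0.660 RPKM in the clones and 0.273 to 0.418 RPKM in EB3, without overlap. Hand1 was also higher in the clones without overlap (0.147 to 0.186 against 0.0788 to 0.141 RPKM), from 7 to 10 reads against 4 to 7. Elf5 went the other way, lower in the clones without overlap (0 to 0.0540 against 0.0662 to 0.121 RPKM), from 0 to 3 reads against 4 to 7. Of the 10 fibroblast markers, 2 were tested, Lum was at 0 in all libraries, and the sum was 41.3 to 53.2 RPKM in the clones and 58.6 to 65.6 RPKM in EB3, nearly all of it Thy1 and S100a6. Single fibroblast markers went both ways. Pdgfra was higher in the clones without overlap (0.221 to 0.278 against 0.106 to 0.169 RPKM). Fbln2 (0.104 to 0.151 against 0.188 to 0.301 RPKM) and S100a6 were lower without overlap. The 9 gastrulation mesoderm markers summed to 4.37 to 5.13 RPKM in the clones and 5.01 to 5.47 RPKM in EB3, with Msgn1 at 0. Of all tested genes, 12.7% lay higher in the clones without overlap and 13.4% lower. Apart from S100a6, the markers named here as not overlapping were under the tested level, which these shares do not cover. The part of these cell types in the differences above was not tested.

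The 8 genes assigned to a SIM2-bound region were compared with the other 29. All 8 were tested and 7 had a fold change above 0. The Sim2 and EB3 groups did not overlap for 5 (Vim, Jup, Snai1, Mmp2 and Cldn4), in each case with the clones higher, against 12.7% of all tested genes. B8 was the highest library for 7 of the 8, all but Vim, against 25.3% of all tested genes. The median log2 fold change of the 8 was 0.46, and without B8 it was 0.37. Of the other 29 genes, 22 were tested and their median was 0.09, or 0.04 without B8 and 0.0046 without EB3-0, and that of the 8 was 0.43 without EB3-0. Among the 22, 2 did not overlap with the clones higher (Esrp2 and Dsp) and 3 with the clones lower, against 12.7% and 13.4% of all tested genes. Over all 1169 tested genes that were assigned any SIM2-bound region, the median was 0.06 (0.01 without EB3-0), 222 lay higher without overlap and 139 lower. Vim was the single call among the 8. The regions also had other assigned genes, of which 4 were tested and 0 called. Ube2v1, next to Snai1, had a log2 fold change of -0.05, Hap1, next to Jup, 0.14, and Atox1, next to Sparc, 0.20, while Irx6, next to Mmp2, was under 0.1 RPKM.

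**Figure D4:**
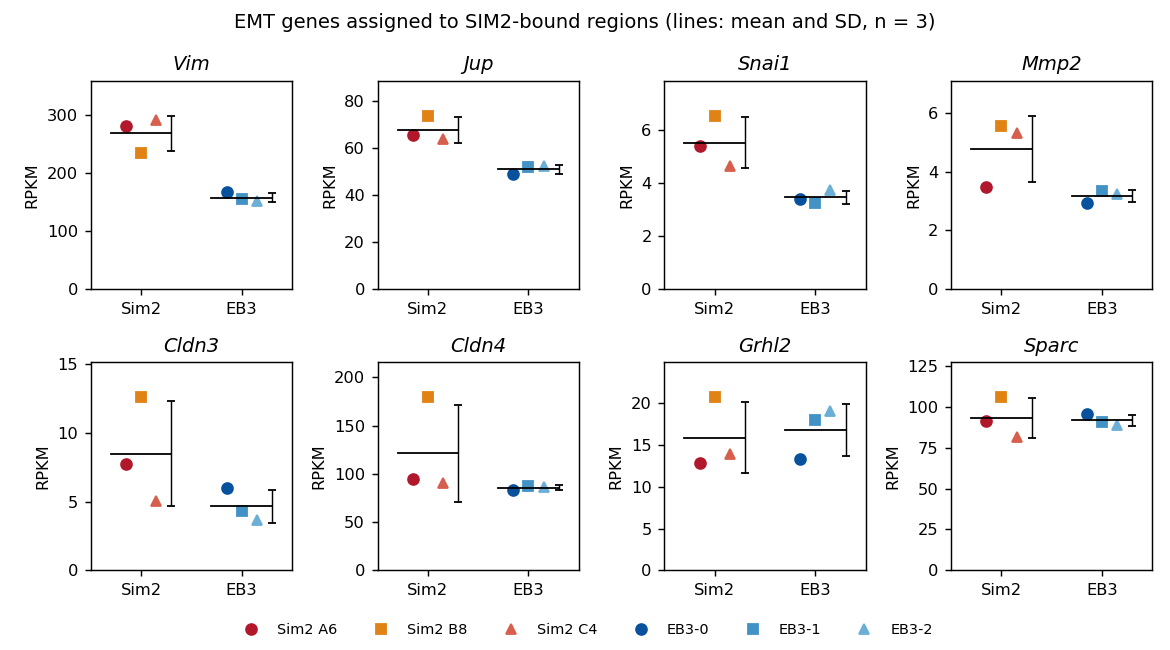
RPKM of the 8 EMT genes assigned to a SIM2-bound region, with 1 symbol a library and, for each group, the mean (line) and SD (bar) over 3 libraries. In Vim, Jup, Snai1, Mmp2 and Cldn4 all 3 clones lie above all 3 EB3 cultures, and in Cldn3, Grhl2 and Sparc the groups overlap. B8 is the highest library in each of these genes except Vim.

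7 further lists held 115 other genes of the table from the same structures and pathways, of which 75 were tested. Of these, 1 was called higher and 0 lower, against 0.699% of all tested genes called in either direction. The called gene was Itga5 (chromosome 15, 103174718 to 103197179), the alpha subunit of the fibronectin receptor. It was 37.4, 39.7 and 36.9 RPKM in A6, B8 and C4 and 25.2, 20.4 and 21.4 RPKM in EB3-0, EB3-1 and EB3-2. Its groups were clearly apart, and the log2 fold change was 0.76 ± 0.10 (SE; limma, adjusted p = 0.0283), although the call held in only 1 of the 6 limma fits that left out a library, that without EB3-0 (adjusted p = 0.0103 to 0.144). The 13 tested genes around it had a median log2 fold change of 0.12. Matrix and mesenchymal genes other than the members had 19 tested genes with a median of 0.32, 7 higher in the clones without overlap and 1 lower, against the 12.7% and 13.4% of all tested genes given above. The median was 0.14 without EB3-0. Lama1, a laminin chain gene, was 11.8, 32.9 and 16.3 RPKM in the clones and 6.96, 11.5 and 11.6 RPKM in EB3, and Col4a1 and Col4a2, collagen IV chain genes, had log2 fold changes of 0.87 and 0.88 (limma, adjusted p = 0.166 and 0.165). B8 was again the highest library for these 3 genes, and without it the log2 fold changes were 0.48 for Lama1, 0.57 for Col4a1 and 0.60 for Col4a2.

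Other adherens junction genes all had fold changes above 0, with a median of 0.32 over 7 tested genes, and 5 of the 7 were higher without overlap, against 12.7% of all tested genes. The 3 with the largest change were Vcl, which encodes vinculin, at 0.52, Mllt4, which encodes afadin, at 0.43, and Pvrl2, a nectin gene, at 0.40 (limma, adjusted p = 0.181, 0.206 and 0.112). Vcl and Mllt4 have long cDNAs, and without EB3-0 they were 0.34 and 0.25, while Pvrl2 was 0.48 and was called (limma, adjusted p = 0.0294). Ctnnd1 (-0.10) and Ctnnb1 (-0.04) were below 0 without EB3-0, and the median of the list was then 0.32. The fit without EB3-0 called 5.99% of all tested genes. The 13 other tight junction and polarity genes had a median of 0.19, and 4 lay higher in the clones without overlap, led by Cldn9 at 0.64, Llgl2 at 0.45 and Pard6b at 0.24 (12.7% of all tested genes lay so). The median was 0.11 without B8 and 0.09 without EB3-0, Cldn9 was 0.38 without B8, Pard6b was 0.15 without EB3-0, and Llgl2 was called without EB3-0 (limma, adjusted p = 0.0180). The 7 other desmosome and keratin genes had a median of 0.20, or 0.13 without B8. Krt8 was 7.95, 21.7 and 5.21 RPKM in A6, B8 and C4 and 4.93, 3.79 and 4.86 RPKM in EB3, and Krt18 was 5.78, 11.9 and 5.71 RPKM against 4.71, 4.27 and 4.60 RPKM. Without B8 the log2 fold change fell from 1.03 to 0.47 for Krt8 and from 0.64 to 0.31 for Krt18. Both keratins lie on chromosome 15 among 20 genes whose own medians were 0.24 and 0.26, and the Krt8 transcript has 1697 bases at 97.9% identity on chromosome 7. The Krt18 transcript has 1251 bases at 90.3% identity on chromosome 13. Pkp4, a plakophilin gene, had a log2 fold change of 0.20, and of 0.10 without EB3-0.

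Other epithelial regulators had a median of 0.38 over 12 tested genes, which was 0.06 without B8. Klf5, a Krüppel-like factor of epithelia and ES cells, had a log2 fold change of 0.81 (limma, adjusted p = 0.0606), beside 20 neighbours on chromosome 14 with a median of 0.28, and Rbm47, an RNA-binding protein gene, had 0.71 (limma, adjusted p = 0.0847). Without EB3-0 both were called (limma, adjusted p = 0.0128 and 0.0471), in a fit that called 5.99% of all tested genes. The paper's own test, with edgeR, called Klf5 higher in the Sim2-expressing cells. Other EMT transcription factors had a median of -0.25 over 7 tested genes, and of -0.01 without B8. The 10 tested TGF-beta pathway genes had a median of 0.04 and all overlapped between groups. Among the fibroblast markers, S100a6 had a log2 fold change of -0.60 (limma, adjusted p = 0.0806).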

How the data were processed

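Per the labels, total RNA of 6 cultures was made into libraries with a TruSeq RNA kit. The authors aligned the reads to mm9 with BWA, computed exon coverage for each gene with their own pipeline and deposited RPKM. The versions and the handling of multiply placed reads are not given in the sources used here. Values multiplied by cDNA length were whole multiples of a step in 100% of cases (tolerance 0.01), which gave the reads per library, from 25095861 to 28269340. 1 read in a 2 kb cDNA was at most 0.0199 RPKM. 0 columns of per-sample values were unused.

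Values were tested as log2(RPKM + 0.5), which understates changes of low genes, for the 11595 genes (51.3%) whose mean over the 6 libraries reached 1 RPKM, with limma 3.58.1 (R 4.3.3; eBayes with an intensity trend, Benjamini-Hochberg adjustment, threshold 0.05), 3 clones against 3 EB3 cultures without covariates. Ratios were compared by 2-sided exact permutation tests. The script was tested on simulated data. Since EB3 cultures are replicates of 1 line, p-values measure the spread between these libraries.

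Members with a mean of at least 1 RPKM are given per library if they were called, did not overlap between groups, changed by at least 0.3 (log2), or were among Cdh1, Cdh2, Epcam, Vim, Zeb1, Zeb2, Snai1 and Fn1. From each other list (other adherens junction, tight junction and polarity, desmosome and keratin, epithelial regulator, EMT factor, matrix, TGF-beta; ES cell, fibroblast, endoderm, trophectoderm and mesoderm markers), called genes and up to 3 that did not overlap are named. 1 gene that this rule would name is not reported here. The members and lists were chosen with earlier results of these data known. 8 listed symbols have no row under that name. Positions of the SIM2-bound regions came from the supplementary site list and their sequences from the mm9 genome (NCBIM37, GENCODE M1 annotation); 40 transcripts were searched for copies of at least 200 bases and 90% identity with minimap2 2.31. Alternatives were other pseudocounts (0.1 and 1), filters, scalings, no intensity trend, removal of cDNA length trends (splines, 5 df), voom on the recovered reads, EB3-1 and EB3-2 averaged, and each library left out. Python 3.11.15 and matplotlib 3.10.9 were used.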

Additional observations from a re-analysis of the deposited data

How the results depend on the processing

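The number of EMT genes called depended on the setting. It was 1 (Vim) with all other pseudocounts, scalings, a minimum of 3 RPKM, cDNA length trends removed and voom, and 0 with no filter on low values, with no intensity trend, and with EB3-1 and EB3-2 averaged. Leaving out 1 library gave 0 to 2 called EMT genes, all higher and all near SIM2-bound regions, and 0 to 8 called genes of the other pathway lists. Those lists had 0 called genes with no filter, no intensity trend or EB3-1 and EB3-2 averaged, and 4 with length trends removed. Vim was called in 9 of 16 alternatives (limma, adjusted p = 0.00881 to 0.148). Over all genes 81 were called, 28 with no filter, 30 with no intensity trend, 6 with EB3-1 and EB3-2 averaged, 250 with length trends removed, and 6 to 694 when 1 library was left out, the highest without EB3-0. The cause was not tested.

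21 of the 30 tested members kept their sign in every alternative that included them (27 had the mean of 3 RPKM that the stricter filter asks), and the other 9 had changes of at most 0.25 in size. With EB3-1 and EB3-2 averaged the log2 fold change was 0.023 for Zeb1, 0.070 for Esrp1, 0.018 for Cdh1 and -0.00035 for Sparc. Quantile normalization gave 0.040 for Cdh1 and 0.0016 for Epcam, and removal of length trends gave -0.0055 for Tjp1. Leaving out 1 library gave -0.27 to 0.15 for Zeb1, -0.18 to 0.11 for Esrp1, -0.30 to 0.033 for Grhl2, -0.11 to 0.043 for Cdh1, -0.21 to 0.10 for Epcam, -0.25 to 0.012 for Ocln, -0.16 to 0.26 for Tjp1, -0.083 to 0.10 for Sparc and -0.018 to 0.51 for Tgfb1. The difference in the log2 ratio of Epcam to Vim stayed between -1.07 and -0.60 and that of Cdh1 to Cdh2 between 0.30 and 0.62. No paired analysis was possible because the clones and the EB3 cultures share no replicate numbers. With 3 libraries a group, genes near 1 RPKM had wide intervals.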
